A study of Mus musculus with 6 samples.

Results

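Leukocyte integrins are the integrins that white blood cells use to adhere to vessel walls, to each other and to tissue. The genes described here are 8 of the 34590 gene symbols in the count table, taken by symbol. Earlier results of these data were known when the list was chosen. The genes are Itgb2, which encodes the β2 chain, and its α partners Itgal, Itgam, Itgax and Itgad. The others are Itga4, Itgae and Itgb7 of the α4 and β7 group. RNA-seq was performed on 3 pairs of contralateral mammary glands (gland number 4), each pair from 1 WT host female whose own mammary epithelium had been removed from the fat pads. The left gland of each host carried WT.EGFP+ epithelium and the right gland carried Adamts18-/-.EGFP+ epithelium, so that genotype and body side cannot be told apart. Both grafts carried the EGFP transgene, which is driven by an actin promoter. The lines were kept on the C57BL/6JOlaHsd background, and the knockout was carried by the grafted cells and not by the host. The age of the hosts at collection is not given in the sources used here. The labels name sorted GFP+ mammary epithelial cells as the source of the RNA, whereas the study's text speaks of profiled glands.

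An integrin is a pair of 1 α and 1 β chain that spans the membrane. In a resting leukocyte the pair is folded and binds poorly, and signals from inside the cell, carried by Rap1, talin and kindlin-3, extend it (inside-out activation). Once it has bound its ligand, it signals back through Src family kinases and Syk (outside-in signaling). The mammary gland holds resident macrophages around its ducts and T cells within its epithelium. The latter are known for the pair of αE and β7, which binds E-cadherin on epithelial cells.

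The labelled cell type was checked against marker genes first. Epcam, an epithelial adhesion molecule, ranged from 83.4 to 180 CPM, a unit that divides the counts by the TMM-scaled size of the library, so epithelial RNA was present in all 6 glands. Ptprc, which encodes CD45 and marks all leukocytes, lay between 86.5 and 549 CPM, and Csf1r, the macrophage growth factor receptor, between 205 and 383 CPM. Fabp4, an adipocyte lipid carrier, lay between 2142 and 5295 CPM. RNA of leukocytes and fat cells was therefore present beside that of epithelium. The sum of 6 skeletal muscle genes was 264, 788 and 2706 CPM in WT and 10557, 10483 and 1841 CPM in Adamts18-/- glands of mice 1, 2 and 3 (median log2 fold change 2.99, 0 of 6 called). Of 7 myoepithelial genes, 6 were called lower, with a median of -0.54. The part of these differences in the integrin values was not tested. The neutrophil gene Ly6g reached at most 0.0325 CPM, and 2 glands held 0 counts of it. Other neutrophil genes were higher. The 7 genes of that list summed to 7.10, 4.27 and 2.95 CPM in WT and 5.53, 3.80 and 14.0 CPM in Adamts18-/- glands of mice 1, 2 and 3. The total counts per gland ranged from 53875123 to 71595924. Adamts18, the targeted gene, fell from 3.61 to 2.75 CPM in mouse 1, from 9.92 to 4.87 CPM in mouse 2 and from 6.80 to 3.29 CPM in mouse 3 between the WT and the Adamts18-/- gland.

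Of the 8 genes, 4 had a promoter in the RefSeq table used (GRCm38.p6): Itga4, Itgam, Itgax and Itgb7. The 250 bases before the start of Itgam (chr7:128062390-128062639, plus strand) and of Itgb7 (chr15:102231936-102232185, minus strand) are shown. Itgam was picked for its pattern over the glands, and Itgb7 as the one member called between genotypes, as described below. Both are printed in the direction of transcription. Capitals mark GAGGAA on either strand (read as TTCCTC on the other one), a word bound by the myeloid factor PU.1.
Itgam: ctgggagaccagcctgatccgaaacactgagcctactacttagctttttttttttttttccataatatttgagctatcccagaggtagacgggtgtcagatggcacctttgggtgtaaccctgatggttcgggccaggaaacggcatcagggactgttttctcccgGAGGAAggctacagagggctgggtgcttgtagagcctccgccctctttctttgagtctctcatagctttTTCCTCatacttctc
Itgb7: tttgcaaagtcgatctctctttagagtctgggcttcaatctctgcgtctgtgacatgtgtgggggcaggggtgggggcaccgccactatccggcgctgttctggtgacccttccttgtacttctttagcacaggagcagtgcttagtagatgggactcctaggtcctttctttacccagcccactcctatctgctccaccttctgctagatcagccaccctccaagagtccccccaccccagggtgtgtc
GAGGAA occurred in the Itgam promoter at 2 places, 84 and 15 bases before the start, and in none of the other 3 promoters. TGTGGT, a word bound by RUNX factors, searched on both strands, occurred once, in the Itga4 promoter, 60 bases before its start. Among 32851 mouse promoters of the same 250 bases, 23.3% held GAGGAA and 14.0% held TGTGGT, so neither word is rare.

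All 8 genes were expressed, and none was filtered out for low counts. To compare genes with each other, CPM was divided by the length of a gene's exons in kb (GENCODE M21). On this scale Itgb2 was highest, at 28.3 ± 12.6 CPM per kb (mean ± SD of the 6 glands), followed by Itgb7 at 22.8 ± 12.1 and Itgam at 13.4 ± 2.41. Itgal had 8.29 ± 8.86, Itgax 6.50 ± 3.34, Itga4 5.10 ± 3.11 and Itgae 3.01 ± 2.02 CPM per kb, and Itgad was lowest at 0.187 ± 0.0955. Each gene differed from its neighbour in this order by less than the larger SD of the pair, except Itgae and Itgad. Within glands, Itgb2 lay above Itgb7, Itgax above Itga4, Itga4 above Itgae and Itgae above Itgad in 6 of 6 glands, whereas Itgal lay above Itgax in 2 of 6. The level of Itga4 depends on its long annotated exons, 13978 bases in all, of which transcripts may use a part.

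At the RNA level, and with the annotated exon lengths used, Itgb2 and its α partners were close to balance. Transcripts may use a part of these exons, and protein was not measured. The length-scaled levels of the 4 α genes summed to between 0.970 and 1.04 times that of Itgb2 in every gland. What varied was which α gene supplied them. Itgam, the α chain of Mac-1 on macrophages and neutrophils, made up 68.6%, 52.5% and 37.2% of the α sum in WT and 66.4%, 64.3% and 26.2% in Adamts18-/- glands, here and below in the order of mice 1, 2 and 3. Itgal, the α chain of LFA-1 on lymphocytes and most other leukocytes, made up 13.3%, 21.9% and 33.8% in WT and 10.7%, 17.2% and 49.9% in Adamts18-/- glands. Itgam thus held more than Itgal in 5 of 6 glands, and Itgal more than Itgam in the Adamts18-/- gland of mouse 3. Itgax, found on dendritic cells and some macrophages, kept a share of 17.6% to 28.4%, and Itgad a share of 0.481% to 0.768%.

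**Figure D1:**
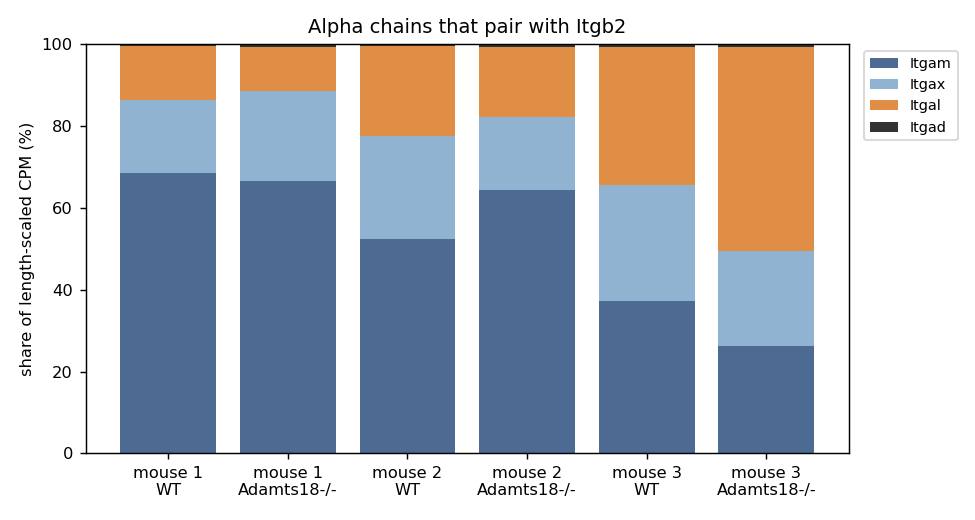
Share (%) of each of the 4 α genes in their summed length-scaled CPM, 1 stacked bar per gland, WT and Adamts18-/- of each mouse side by side. The Itgam segment falls to 37.2% and 26.2% in mouse 3, and the Itgal segment reaches 49.9% in its Adamts18-/- gland.

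The comparison of genotypes asks whether loss of Adamts18 from the grafted epithelium changed these genes. Adamts18-/- and WT glands were compared within mice, and a gene was called at the thresholds of the study, a rise of over 25% or a fall of over 20% at p under 0.05 before adjustment. Itgb7 was called higher, and the other 7 genes were not called. The study had already named Itgb7 in its RNA-seq, with Itga3 and Itgb4, as altered before adjustment and not after it. The study then examined the levels of these integrins by qRT-PCR at puberty. It reported Itga3 and Itgb4 as lower and did not name Itgb7 as changed. Over all 17345 genes tested, 3.01% were called, 1.17% in the higher direction. With 1 call, the 8 genes cannot be set apart from this share. By adjusted p under 0.05 edgeR called 0 genes in the whole table, with 670 genes at an unadjusted p under 0.05, whereas DESeq2 called 71 genes. Without mouse 3 edgeR called 268 genes, and with pan-epithelial scaling 245 genes. None of the 8 was among the genes called in any of these fits. All 8 fitted differences were positive, with a median log2 fold change of 0.22 against 0.00065 over all genes, of which 50.2% were positive. The median rested on mouse 3. Mouse by mouse it was 0.18, -0.051 and 0.70, and without mouse 3 the fitted median was 0.032, with Itgal, Itgax and Itgae below 0. With pan-leukocyte scaling it was -0.17, and the median of 10 pan-leukocyte genes was 0.40 on the scale used here. In bulk RNA, fewer cells of a type and less RNA per cell cannot be told apart.

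**Figure D2:**
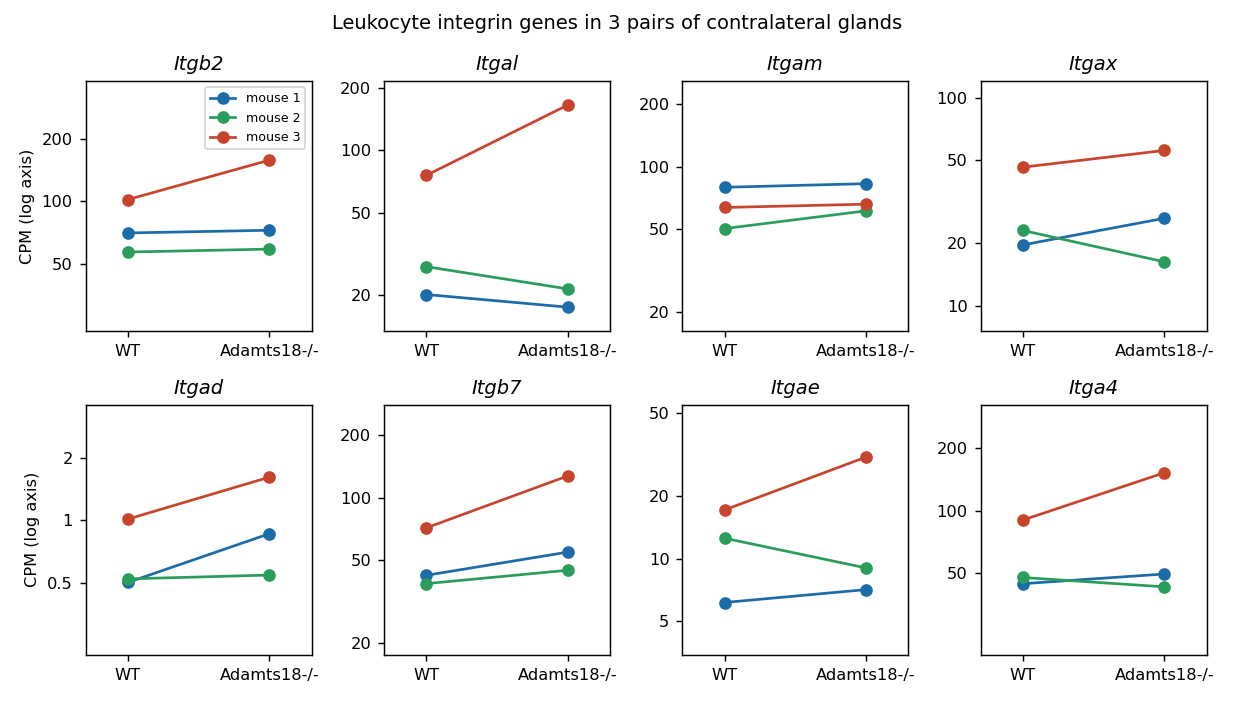
CPM (log axes, all spanning the same factor) of the 8 genes in WT and Adamts18-/- glands, 1 point per gland and a line joining the 2 glands of a mouse. Mouse 3 lies above the other mice for every gene but Itgam, and the lines of Itgb7 rise in all 3 mice.

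Itgb7 encodes the β7 chain, which pairs with α4 for homing to mucosal vessels and with αE for binding to epithelium. It had 42.3, 38.6 and 71.6 CPM in WT and 54.7, 44.7 and 127 CPM in Adamts18-/- glands. It was higher in the Adamts18-/- gland in 3 of 3 mice, and the groups overlapped, since mouse 3 was high on both sides. The fitted fold change was 1.39, a log2 fold change of 0.47 (SE 0.14, 95% interval 0.11 to 0.83), with unadjusted p = 0.0202 and adjusted p = 0.987 by edgeR's quasi-likelihood test. The adjusted p lay between 0.343 and 0.99997 under the alternatives tried. An exact permutation test over the 3 pairs gave p = 0.25, the smallest value that 3 pairs allow. Without pairing the glands by mouse the log2 fold change was 0.57 with unadjusted p = 0.262 (adjusted p = 0.99997, edgeR), and the call was lost.

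The call also depended on single mice and on the scale. Without mouse 1 the log2 fold change of Itgb7 was 0.52 with unadjusted p = 0.0504 (adjusted p = 0.99996, edgeR). Without mouse 3 it was 0.30 with unadjusted p = 0.0127 (adjusted p = 0.387, edgeR), which is under the threshold on the fold change. Scaled to 10 pan-leukocyte genes instead of all genes, it was 0.084 with unadjusted p = 0.875 (adjusted p = 0.914, edgeR), where the median of all genes moved to -0.38.

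The adjusted p of the other 7 genes was 0.988 for Itgax and 0.987 for the rest (edgeR). The partners of the β7 chain did not pass the thresholds. Itgae encodes αE (CD103), the marker of intraepithelial T cells. It had 6.15, 12.5 and 17.2 CPM in WT and 7.09, 9.03 and 30.8 CPM in Adamts18-/- glands. Mice 1 and 3 were higher in the Adamts18-/- gland and mouse 2 was lower, and the log2 fold change was 0.20 (SE 0.27, 95% interval -0.51 to 0.90). Itga4 encodes α4, which also pairs with β1 to bind VCAM-1 and fibronectin. Itga4 had 44.6, 47.7 and 90.2 CPM in WT and 49.6, 43.0 and 152 CPM in Adamts18-/- glands. It was again higher in mice 1 and 3 and lower in mouse 2, with a log2 fold change of 0.25 (SE 0.19, 95% interval -0.23 to 0.74). Part of the exons of Itga4, 1124 bases, is shared with Cerkl on the opposite strand, which had 36 to 128 counts per gland, and whether the counting used strand is not given in the sources used here.

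Itgb2 had 70.5, 57.0 and 102 CPM in WT and 72.6, 58.9 and 158 CPM in Adamts18-/- glands. It was higher in the Adamts18-/- gland in 3 of 3 mice, but by log2 differences of 0.043 and 0.047 in mice 1 and 2 against 0.63 in mouse 3. The fit gave 0.24 (SE 0.14, 95% interval -0.13 to 0.61). Set against Itgb2, the length-scaled level of Itgb7 was 0.661, 0.745 and 0.773 in WT and 0.830, 0.837 and 0.888 in Adamts18-/- glands. These groups did not overlap, a pattern picked out after its values were seen. The ratio to Itgb2 separated the genotypes for 1.24% of all genes tested, and for Itgb7 but none of the other 6 members. Another denominator gave another picture. The CPM of Itgb7 over that of Ptprc was 0.442, 0.393 and 0.352 in WT and 0.522, 0.517 and 0.232 in Adamts18-/- glands. These groups overlapped, and mouse 3 was lower in the Adamts18-/- gland.

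Itgal had 20.2, 27.5 and 75.5 CPM in WT and 17.5, 21.5 and 165 CPM in Adamts18-/- glands. It was lower in the Adamts18-/- gland of mice 1 and 2 and higher in mouse 3, with log2 differences of -0.20, -0.36 and 1.12. The fitted log2 fold change of 0.19 (SE 0.32, 95% interval -0.65 to 1.03) therefore rested on mouse 3, and without that mouse it was -0.27 with unadjusted p = 0.0372 and adjusted p = 0.680 (edgeR). Itgam had 79.7, 50.4 and 63.7 CPM in WT and 82.9, 61.3 and 66.0 CPM in Adamts18-/- glands. It was higher in the Adamts18-/- gland in 3 of 3 mice by a small margin, with a log2 fold change of 0.13 (SE 0.079, 95% interval -0.077 to 0.34). In the annotation, 3450 bases of its exons are shared with Gm49368 on the same strand, a symbol that the count table does not list.

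Itgax had 19.6, 23.0 and 46.4 CPM in WT and 26.3, 16.3 and 55.8 CPM in Adamts18-/- glands. Mouse 2 went the other way from mice 1 and 3, and the log2 fold change was 0.067 (SE 0.20, 95% interval -0.46 to 0.59). Itgad encodes αD, an α chain of macrophages. It was the lowest member, with 35, 32 and 57 counts in WT and 45, 33 and 99 counts in Adamts18-/- glands, or 0.502 to 1.61 CPM. It was higher in the Adamts18-/- gland in 3 of 3 mice, with a log2 fold change of 0.51 (SE 0.24, 95% interval -0.13 to 1.15). The values of Itgad are uncertain. Itgax and Itgad share 199 identical stretches of 85 bases, the read length, and 70 bases of Itgad exons overlap the muscle gene Cox6a2 on the opposite strand. Cox6a2 had 60, 137 and 276 counts in WT and 856, 1413 and 247 counts in Adamts18-/- glands, and its part in the Itgad difference was not tested.

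Higher in the Adamts18-/- gland in 3 of 3 mice were thus Itgb7, Itgb2, Itgam and Itgad, 4 of the 8 genes, against 10.8% of all genes tested. With scaling to total counts Itgb2 and Itgad were slightly lower in mouse 2 (log2 differences of -0.032 and -0.018), which left Itgb7 and Itgam, 2 of 8 against 7.29%. In none of the 8 genes were the WT and Adamts18-/- groups free of overlap, which held for 4.94% of all genes. The 95% intervals of the 7 genes not called still reach log2 fold changes from 0.34 for Itgam to 1.15 for Itgad, so true differences up to these sizes are not excluded by the 3 pairs.

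**Figure D3:**
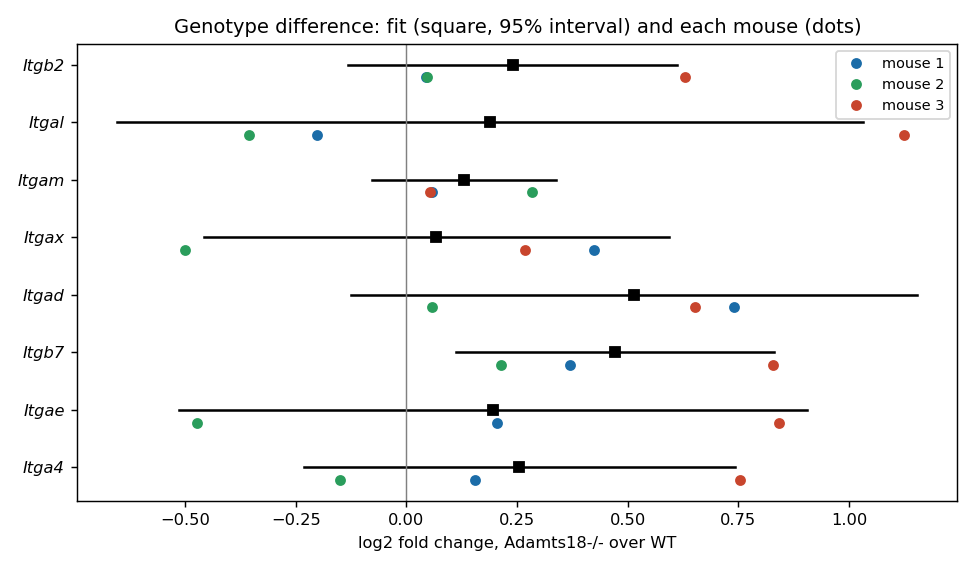
Log2 fold change of Adamts18-/- over WT for the 8 genes: squares with lines are the fit and its 95% interval, dots are the 3 mice. The interval of Itgb7, 0.11 to 0.83, is the one that lies above 0, and the mouse 3 dot is the highest for Itgb2, Itgal, Itgb7, Itgae and Itga4.

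The largest differences among these genes lay between the hosts. The mean of both glands of mouse 3 was 5.54 times the mean over mice 1 and 2 for Itgal, 2.76 times for Itgae, 2.62 times for Itga4 and 2.40 times for Itgax. The ratios were 2.20 for Itgb7, 2.16 for Itgad and 2.01 for Itgb2, and 0.946 for Itgam. For 7 of the 8 genes both glands of mouse 3 lay above the other 4 glands, as did 24.2% of all genes tested. The host accounted for 76.6% to 91.5% of the sum of squares of log2 CPM in each gene, against a median of 67.3% over all genes. Host, donor and experiment cannot be told apart here, since the study used a different donor in each of its independent experiments. Still, by the F test of the mouse term 0 of 8 genes had an adjusted p under 0.05 (range 0.0603 to 0.121, edgeR), against 0.628% of all genes. At an unadjusted p under 0.05 it was 8 of 8 against 27.2%, and DESeq2 called 7 of 8 at an adjusted p under 0.05 against 19.2%.

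Itgam stood apart from the other members in this respect. Its highest gland was 1.65 times its lowest, whereas for Itgal the factor was 9.39. The other 7 genes correlated with each other over the 6 glands with Pearson's r of log2 CPM between 0.79 and 0.98, and Itgam correlated with them at -0.45 to 0.17. This is a description of 6 glands from 3 hosts, in which the mouse 3 glands weigh most.

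Marker genes of leukocyte types moved with the same glands. The summed level of 10 pan-leukocyte genes was 739, 610 and 1210 CPM in WT and 751, 601 and 2727 CPM in Adamts18-/- glands. The sum of 9 T cell genes was 40.6, 82.5 and 208 CPM in WT and 35.9, 53.3 and 586 CPM in Adamts18-/- glands. The sum of 7 B cell genes was 14.9, 11.5 and 126 CPM in WT and 11.3, 8.48 and 708 CPM in Adamts18-/- glands. Lymphocyte genes were thus highest in the Adamts18-/- gland of mouse 3, second in its WT gland, and lower in the Adamts18-/- than in the WT gland of mice 1 and 2. The order for Itgal was the same. The 8 macrophage genes summed to 1099 to 1777 CPM in WT and 1164 to 1787 CPM in Adamts18-/- glands and did not rise in mouse 3. None of the 10 pan-leukocyte, 9 T cell, 7 B cell or 8 macrophage genes was called between genotypes. The median log2 fold changes were 0.40, 0.25, 0.71 and -0.024. Without mouse 3 all 4 changed sign, to -0.030, -0.43, -0.37 and 0.13, and limma-voom gave 1.77 for the B cell genes.

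**Figure D4:**
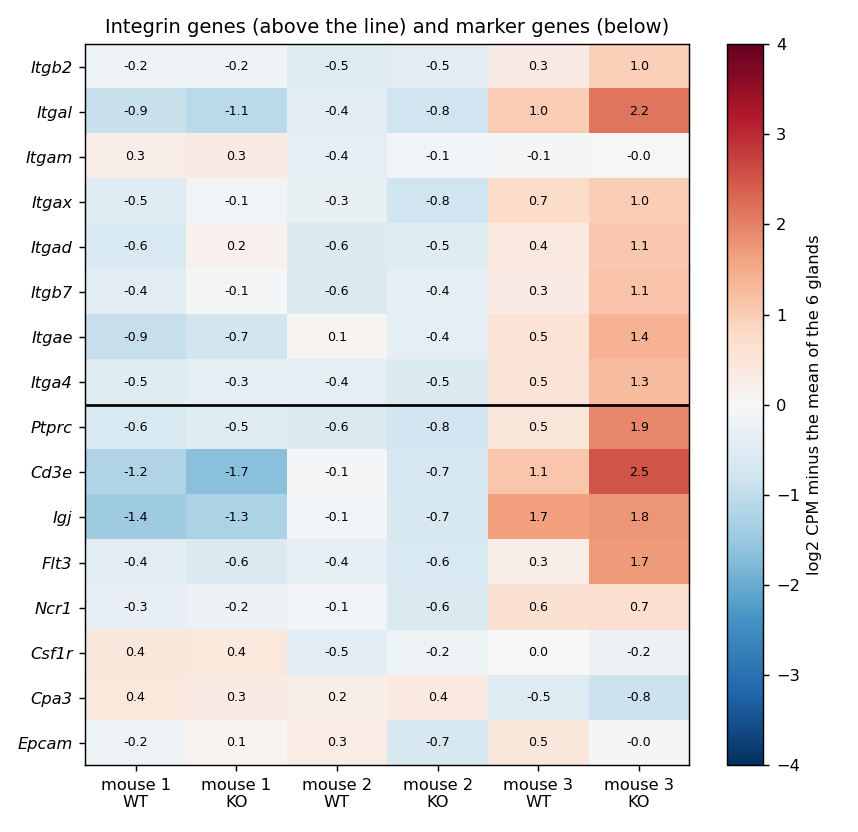
Log2 CPM of each gene minus its mean over the 6 glands, for the 8 integrin genes (above the line) and 8 marker genes (below it). Columns are WT and Adamts18-/- (KO) glands by mouse. The Adamts18-/- gland of mouse 3 is highest for 7 integrin genes and for Ptprc, Cd3e, Igj, Flt3 and Ncr1, but not for Itgam, Csf1r, Cpa3 or Epcam.

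Ratios to single markers describe this further. Per Ptprc, Itgal varied 2.22-fold over the 6 glands in place of 9.39-fold, and Itga4 1.79-fold, whereas Itgam varied 6.93-fold. Per Csf1r, Itgam varied 1.33-fold and Itgal 14.9-fold. Per Cd3e, a chain of the T cell receptor complex, Itgal varied 1.97-fold and Itgae 4.21-fold. Per Flt3, a receptor of dendritic cells and their precursors, Itgae varied 1.93-fold and Itgb7 2.06-fold. Itgb7 varied 1.94-fold per the NK cell gene Ncr1, so its ratio does not single out dendritic cells. Of the other dendritic cell genes, Xcr1, Clec9a and Ccr7 were highest in the Adamts18-/- gland of mouse 3, like Flt3. Zbtb46 and Cd209a were not. Itgal thus kept a narrower ratio to Ptprc and Cd3e than to Csf1r, and Itgam the reverse. Narrow ratios were not limited to these markers. Itgal varied 2.23-fold per the plasma cell gene Igj, and Itgam 2.33-fold per Epcam. The part of leukocyte numbers in the genotype values of the 8 genes was not tested beyond the scaling to pan-leukocyte genes. That scaling moved the median of all genes to -0.38, so that genes with a smaller positive value turn negative by construction. Under it Itgb2, Itgal, Itgam, Itgax, Itgae and Itga4 turned to negative log2 fold changes between -0.33 and -0.13, and Itgb7 and Itgad stayed positive at 0.084 and 0.10. Scaled to 22 pan-epithelial genes, of which 7 were called lower, all 8 were positive, and the median of all genes rose by 0.38.

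Other leukocyte types were seen through few genes. Ncr1, an NK cell receptor, had 2.52, 2.95 and 4.85 CPM in WT and 2.70, 2.11 and 5.03 CPM in Adamts18-/- glands. Igj, the joining chain of secreted antibodies and a plasma cell marker, had 197, 488 and 1647 CPM in WT and 218, 333 and 1789 CPM in Adamts18-/- glands, highest in both glands of mouse 3. S100a8, a neutrophil protein, lay between 0.835 and 2.00 CPM and was highest in the Adamts18-/- gland of mouse 3. The mast cell protease Cpa3 lay between 47.1 and 113 CPM and was lowest in the glands of mouse 3. Of these genes, none was called between genotypes.

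**Figure D5:**
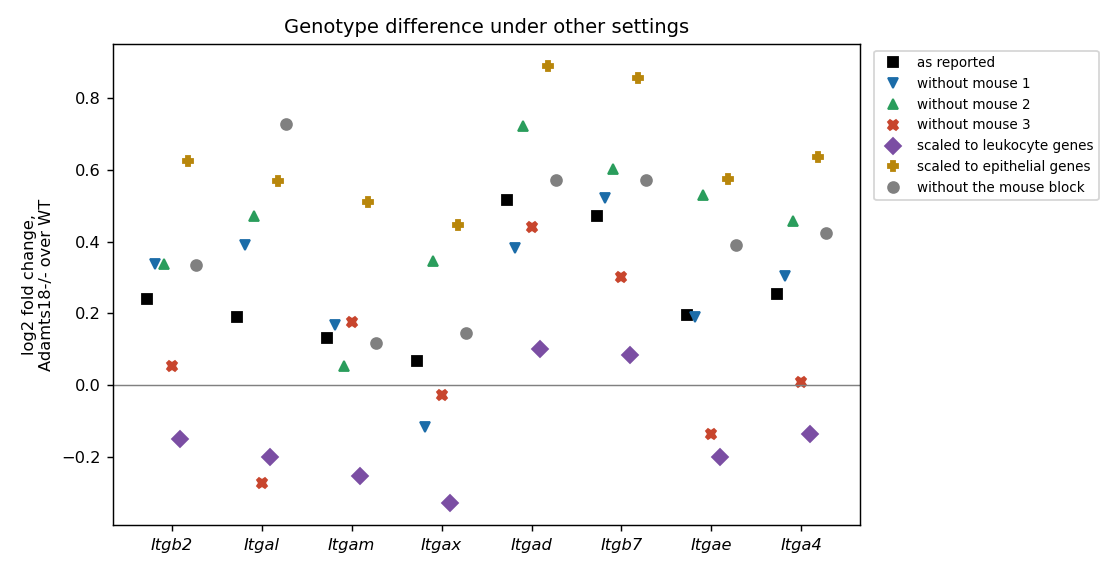
Log2 fold change of Adamts18-/- over WT for each of the 8 genes as reported and under 6 other settings: a mouse left out, scaling to leukocyte or epithelial genes, or no pairing by mouse. Itgb7 and Itgad stay above 0 throughout, while Itgal spans -0.27 to 0.73.

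The ligands of these integrins were measured in the same glands, and 0 of 12 ligand and counter-receptor genes were called, with a median log2 fold change of -0.014. The most abundant were C3, whose fragment iC3b binds Mac-1, Fn1, which encodes fibronectin, and Cdh1, which encodes E-cadherin, the ligand of the pair of αE and β7. C3 had a log2 fold change of -0.016 (SE 0.14). Fn1 had one of 0.24 (SE 0.13), with log2 differences of 0.12, 0.32 and 0.30 in mice 1, 2 and 3. Cdh1 had 104, 140 and 200 CPM in WT and 124, 78.9 and 152 CPM in Adamts18-/- glands, lower in mice 2 and 3, with a log2 fold change of -0.32 (SE 0.22). The following 3 ligands were chosen after their values were seen. Vcam1, the vessel ligand of α4, had 46.3, 86.5 and 113 CPM in WT and 48.9, 66.2 and 136 CPM in Adamts18-/- glands. Madcam1, the mucosal ligand of the pair of α4 and β7, lay between 0.172 and 0.444 CPM in 5 glands and at 2.12 CPM in the Adamts18-/- gland of mouse 3, the gland highest in Itgb7 as well. F11r, a junction molecule bound by LFA-1, was lower in 3 of 3 mice with unadjusted p = 0.0194 (adjusted p = 0.987, edgeR), and its log2 fold change of -0.30 fell short of the threshold on the fold.

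Of 12 genes of inside-out activation, 0 were called and 11 had positive log2 fold changes, with a median of 0.20. Without mouse 3 that median was -0.013, and with pan-leukocyte scaling it was -0.18. Tln1, which encodes the talin that binds the β tail, had a log2 fold change of 0.035 (SE 0.11). Rap1b, a small GTPase that recruits talin, and Cyth1, which binds the β2 tail, had 0.11 (SE 0.090) and 0.15 (SE 0.10). These 3 most abundant genes of the list varied little, with Tln1 between 368 and 429 CPM. Of 10 genes of outside-in signaling, 0 were called and 9 were positive, with a median of 0.17, which was 0.040 without mouse 3 and -0.21 with pan-leukocyte scaling. Syk, the kinase that acts below β2 integrins, had 105, 77.3 and 131 CPM in WT and 112, 80.2 and 232 CPM in Adamts18-/- glands and a log2 fold change of 0.32 (SE 0.18). Syk was highest in mouse 3, like Itgb2. The adaptor Tyrobp and the kinase Lyn had log2 fold changes of 0.14 (SE 0.066) and 0.12 (SE 0.093).

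The genes most alike to 3 of the members over the 6 glands were listed by Pearson's r of log2 CPM, among all genes tested. For Itgb2 these were Faim3, Tlr1, Ccdc23, Oas1c and Clec4n, with r between 0.998 and 0.999. For Itgb7 they were Rfc4, Lrrc61, Bloc1s2, Gmcl1 and Adcy7, with r between 0.996 and 0.9997. For Itgae they were Eif2d, A430093F15Rik, Ptpn22, Nanos1 and Haus3, with r between 0.995 and 0.997. These r values were picked from 17345 genes over 6 glands and carry no test. The 3 lists had no gene in common.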

How the data were processed

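For 6 libraries the authors deposited raw counts of reads, 1 row per gene symbol and with no normalization, and 0 columns belong to other samples. The submitters' processing notes name bcl2fastq 2.18, TopHat2 2.0.11, featureCounts 1.6.2, edgeR and the mm9 build, with single-end reads of 85 bases; strand settings are not given in the sources used here. Reads matching several genes could be lost or misassigned by such counting. Because the annotation at hand is GENCODE M21 of GRCm38, it was used for exon lengths and overlaps, and apart from the promoter windows, which carry the GRCm38.p6 positions of the RefSeq table, no positions are given. Libraries were mapped to genotype and mouse from their titles.

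Genotype and host were fitted together by quasi-likelihood in edgeR 4.0.16 (R 4.3.3) after TMM scaling and filterByExpr, the host mouse being a block, as the study corrected for mice, and Benjamini-Hochberg adjustment covered the 17345 genes kept. The labels give mouse numbers, and contralateral glands deviated together (correlations 0.512, 0.505 and 0.639). Log2 CPM for correlations and sums of squares used a prior count of 2. Alternatives were RLE, total-count, pan-leukocyte and pan-epithelial scaling, omission of the count filter, a stricter filter (10 counts in each gland), DESeq2 1.42.0, limma-voom (limma 3.58.1), no block, and each mouse left out. Total counts of 53875123 or more put 3 counts at 0.0557 CPM or less, and counting error is small beside the spread between mice for the members other than Itgad. The study states 3 donors in independent experiments, which the labels do not. With the mouse block, genotype p-values rest on how far the differences within pairs vary over these 3 mice, and on variance shared between genes. In edgeR the variance of each gene is drawn toward that of all genes tested, so these p-values do not rest on its 3 pairs alone. The spread between hosts enters them only in the fit without the block.

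The members and lists were chosen with earlier results of these data known. Genes named were the 8 members, Adamts18, the genes of the ligand, activation and signaling lists past the thresholds or else the 3 most abundant, 1 defining gene per leukocyte list (1 of these is left out of the text and remains in the list sums), Epcam, and the 5 genes most alike to Itgb2, Itgb7 and Itgae. Ly6g, Fabp4, Vcam1, Madcam1, F11r, Cox6a2, Cerkl, Gm49368, Xcr1, Clec9a, Ccr7, Zbtb46 and Cd209a were added after values were seen. Itga3 and Itgb4 are named from the study's text.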

Additional observations from a re-analysis of the deposited data

How the results depend on the processing

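The number of the 8 genes called between genotypes was 1 as reported and under RLE and total-count scaling, both other filters, DESeq2 and limma-voom. It was 2 with pan-epithelial scaling (Itgb7, and Itgad with unadjusted p = 0.0395 and adjusted p = 0.598, edgeR) and 0 with pan-leukocyte scaling. Without the replicate block, that is without pairing by mouse, it was 0. With 1 mouse left out it lay between 0 and 2: 0 without mouse 1, 2 without mouse 2 (Itgb7, and Itgax with unadjusted p = 0.0372 and adjusted p = 0.895, edgeR) and 0 without mouse 3. Of the 34 ligand, activation and signaling genes, 0 were called as reported, 1 with total-count scaling, 1 with pan-epithelial scaling and 0 to 2 with a mouse left out (2 without mouse 1). The number of the 8 genes that differed between hosts at an adjusted p under 0.05 was 0 as reported, 5 without the filter (against 4.5% of all genes), 1 with pan-epithelial scaling (6.31%) and 7 with DESeq2 (19.2%). With pan-leukocyte scaling the log2 fold changes turned to -0.20 for Itgal, -0.25 for Itgam, -0.33 for Itgax, -0.15 for Itgb2, -0.13 for Itga4 and -0.20 for Itgae. With a mouse left out, Itgal ranged from -0.27 to 0.47, Itgax from -0.11 to 0.35 and Itgae from -0.13 to 0.53, and the median of the 8 genes was 0.032 without mouse 3. In the whole table, pan-epithelial scaling gave 1024 higher and 25 lower calls, against 203 higher and 319 lower as reported, and no block gave 343 calls against 522. The causes of these changes were not tested. Depth limits Itgad, whose counting SD of the log2 difference was 0.33, 0.36 and 0.24 in mice 1, 2 and 3, and for the other 7 genes this SD was at most 0.10.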
